A study of Equus caballus with 9 samples.

Results

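The genes described here are the 150 that differed most between 3 lines of horse tenocytes derived from embryonic stem cells (ESCs), out of 21689 gene identifiers in the deposited table. They were chosen by measured values: the standard deviation (SD) of log2(CPM + 0.5) over the 3 ESC-derived libraries, where CPM is a gene's count divided by the total of its library and scaled to a common total. A row needed 10 CPM or more in at least 1 ESC-derived line, which 9262 rows had. Rows among the 100 highest counts of any library (193 of them) and rows at 3 counts or fewer in all 6 primary libraries (121) were left out, so that the 150 were taken from 8948. The SD between ESC-derived lines is therefore a description of how the genes were found, and no test is given for it.

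The study sequenced messenger RNA from 9 cultures of tenocytes of the horse (Equus caballus), grown flat in 2D. The ESC-derived lines ES_IG_diff, ES_HJ_diff and ES_PW_diff were at passage 22, 18 and 18. They had been kept as ESCs on inactivated mouse embryonic fibroblasts with leukaemia inhibitory factor, then for 14 days without either, in 15% serum with 20 ng/ml TGF-β3. The fetal lines 319d_2D, 320d_2D and 321d_2D came from gestation days 319, 320 and 321 and were at passage 6, 3 and 7. The adult lines TB_2D, S_2D and CD_2D came from horses aged 2 to 6 years and were at passage 5, 6 and 4. The medium of the fetal and adult lines, together the primary lines, was DMEM with 10% serum and no added TGF-β3 is named for it. Each line is 1 library, so differences between 2 lines have no replicate. ES_IG_diff differed from the other ESC-derived lines in passage as well as in line, and ESC-derived lines differed from primary ones in origin, passage and medium, which cannot be told apart.

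Tenocytes are the fibroblast-like cells that lay down and maintain the collagen matrix of tendon. ESCs can form any tissue of the body, and TGF-β3 is a growth factor that turns them towards the tendon lineage in culture. Lines made from separate embryos carry separate genotypes, and differentiation of stem cells is known to vary from line to line, so a gene that is on in 1 line can be off in the next. The table gives Ensembl identifiers and does not pair them with names, so the function of the genes, and the markers of tenocytes or of other cells, were not examined here. Genes are given by identifier.

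The 150 genes spanned a wide range between the ESC-derived lines. Their SD ran from 1.33 to 4.58 with a median of 1.69, beside a median of 0.22 over the 8948 rows they were taken from. The last gene taken had an SD of 1.330 and the next one 1.328, so the list has no natural edge. With 3 counts put in place of any lower value, the highest line was 5.22-fold to 1142-fold above the lowest, with a median of 10.8-fold. That ratio was 8-fold or more for 117 genes, 16-fold or more for 60 and 64-fold or more for 27. The highest line held at least 222 counts of each gene, and the lower limit of the exact 95% counting interval of the ratio was 4.48 or more throughout. The lowest line held 3 counts or fewer for 13 genes, 5 of them at 0, and there depth limits how large a ratio can be measured. Intervals cover counting error only. Of the 150, 71 reached 10 CPM in 1 ESC-derived line, 52 in 2 and 27 in all 3.

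Some genes were high in 1 line only. ENSECAG00000002223 had the largest SD of all. It was at 0.194 CPM in ES_IG_diff, 221 CPM in ES_HJ_diff and 0.750 CPM in ES_PW_diff. In fetal lines it was at 0.317, 0.255 and 0 CPM, and in adult lines at 0.0953, 0 and 0 CPM. The ES_HJ_diff culture thus stood 295-fold above the next ESC-derived line (exact 95% counting interval 181 to 535), and every other library held under 1 CPM. The counts of this gene are partly fractional, and it did not pass the low-count filter of the test below.

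ENSECAG00000012541 was high in another line. It was at 94.2 CPM in ES_IG_diff, 1.02 CPM in ES_HJ_diff and 0.296 CPM in ES_PW_diff. Fetal lines held 8.87, 10.6 and 0.902 CPM, and adult lines 12.7, 3.62 and 24.3 CPM. ES_IG_diff was 92.5-fold above the next ESC-derived line (exact 95% counting interval 61.5 to 146). The primary lines lay between the ESC-derived extremes and themselves spread widely, with an SD of log2(CPM + 0.5) of 1.66 in fetal and 1.31 in adult lines. Its group means could not be separated: the log2 fold change was 0.96 ± 1.62 for ESC-derived against adult and 1.93 ± 1.67 against fetal (SE, edgeR adjusted p = 0.63 and 0.343).

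Other genes were low in 1 line. ENSECAG00000014867 had 0 counts in ES_IG_diff, and was at 29.7 CPM in ES_HJ_diff and 54.3 CPM in ES_PW_diff. The latter was at least 401-fold higher than ES_IG_diff when 3 counts are set against that library's total. Fetal lines held 1.19, 1.83 and 4.32 CPM and adult lines 3.53, 0.715 and 3.59 CPM, all between ES_IG_diff and the other ESC-derived lines.

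ENSECAG00000024945 showed the opposite relation to the primary lines. It was at 44.1 CPM in ES_IG_diff, 47.2 CPM in ES_HJ_diff and 0.148 CPM in ES_PW_diff, where 3 counts were found. Fetal lines held 29.7, 27.3 and 22.8 CPM and adult lines 27.4, 30.6 and 28.2 CPM. The gene was therefore present at 22.8 to 47.2 CPM in 8 of the 9 cultures and nearly absent from 1, with a ratio of 299 between ES_IG_diff and ES_PW_diff (exact 95% counting interval 102 to 1450). The mean over ESC-derived lines, 30.5 ± 26.3 CPM, hid this, and gave a log2 fold change of -0.19 ± 1.08 against adult lines (SE, edgeR adjusted p = 0.89).

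**Figure D1:**
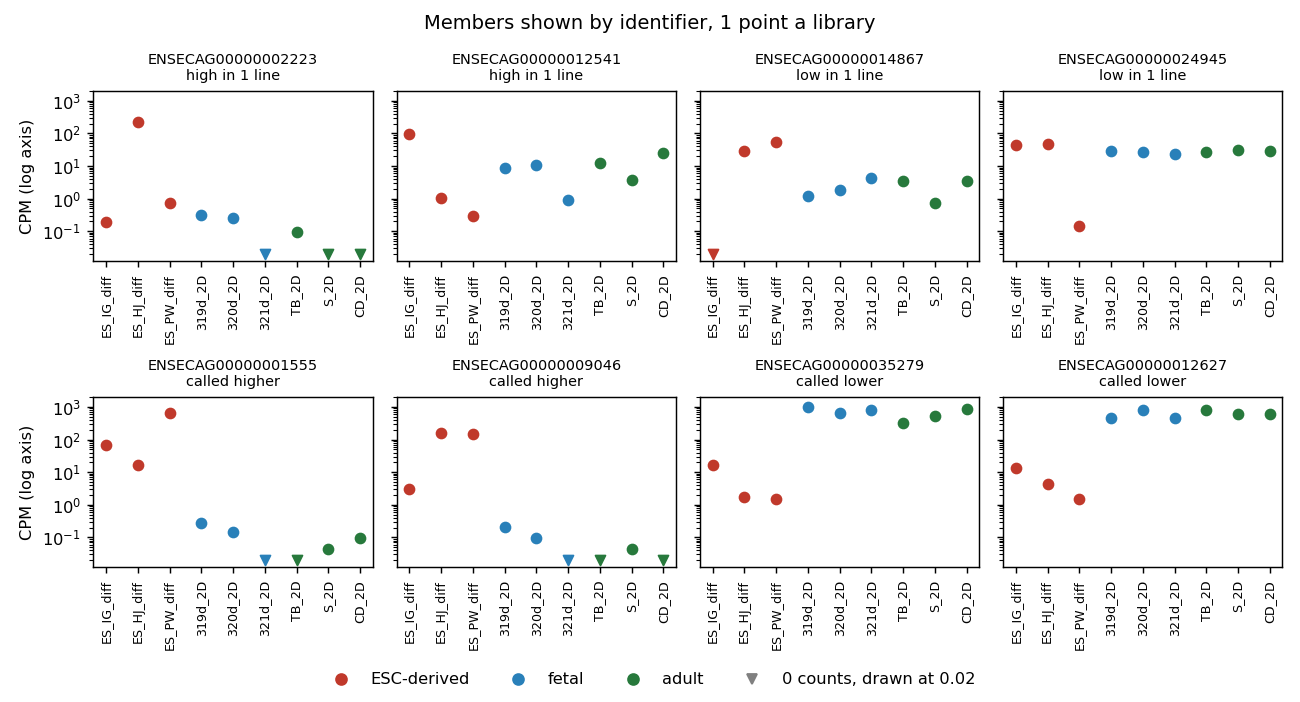
CPM of 8 genes in each of the 9 libraries on a log axis, 1 point a library, with libraries at 0 counts drawn as triangles at 0.02. The top row holds the genes with the largest SD among those high or low in 1 ESC-derived line; ENSECAG00000024945 is level in 8 libraries and at 0.148 CPM in ES_PW_diff. The bottom row holds genes called higher or lower in ESC-derived lines than in both kinds of primary line.

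To say which line set a gene apart, the middle of the 3 ESC-derived values was compared with the highest and the lowest on the log2 scale. A gene was counted as high in 1 line when the upper gap was over 2 times the lower gap, as low in 1 line in the reverse case, and as graded otherwise. Low in 1 line was the commonest form, with 65 genes (43.3%), beside 31% of the 8948 rows. High in 1 line were 33 genes (22%, beside 29.5%), and 52 were graded (34.7%, beside 39.5%). ES_PW_diff was the line that was low alone for 38 genes (25.3%, beside 9.85% of rows). ES_HJ_diff was so for 20 (13.3%, beside 15.7%) and ES_IG_diff for 7 (4.67%, beside 5.44%). ES_HJ_diff was high alone for 18 genes, ES_IG_diff for 8 and ES_PW_diff for 7.

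Counting every gene by its extremes, ES_PW_diff was lowest for 79 of 150 (52.7%, beside 27.5% of the 8948 rows). ES_HJ_diff was lowest for 51 (34%, beside 50.6%) and ES_IG_diff for 20 (13.3%, beside 21.9%). The highest line was ES_HJ_diff for 66 genes (44%, beside 25.8% of the 8948 rows), ES_IG_diff for 44 (29.3%, beside 22.5%) and ES_PW_diff for 40 (26.7%, beside 51.7%). ES_IG_diff was in the middle for 86 genes (57.3%), near its 55.6% of rows. The place of ES_PW_diff among the rows at large depended on the scaling. It was lowest for 27.5% of the 8948 rows when library totals were used and for 41.2% with TMM scaling, a method that sets libraries by the bulk of their genes. For the 150 genes that share was 52.7% and 53.3%. The list was held fixed there and had been chosen with library totals, so this is no sign of stability. With the list drawn anew under TMM library sizes the share was 62.7%. ES_HJ_diff was lowest for 36.5% of rows and 33.3% of the 150 genes with TMM scaling. The row shares for the highest line also depended on the scaling. With TMM scaling ES_HJ_diff was highest for 40.3% of rows and 44% of the 150 genes. ES_PW_diff was then highest for 36.4% of rows and 26% of the 150 genes.

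ES_HJ_diff and ES_PW_diff, both at passage 18, were the lines furthest apart. At a difference over 4-fold in log2(CPM + 0.5), they differed in 125 of the 150 genes, 78 higher in ES_HJ_diff and 47 higher in ES_PW_diff. ES_IG_diff differed from ES_PW_diff in 79 genes, 58 of them higher in ES_IG_diff, and from ES_HJ_diff in 72, of which 40 were higher in ES_IG_diff. Over the 8948 rows the numbers were 204 (2.28%), 93 (1.04%) and 89 (0.995%). These rows include the 125, 79 and 72 chosen genes, so their order is largely that of the 150 and is no separate evidence. TMM scaling gave 125, 76 and 69 of the 150 genes.

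**Figure D2:**
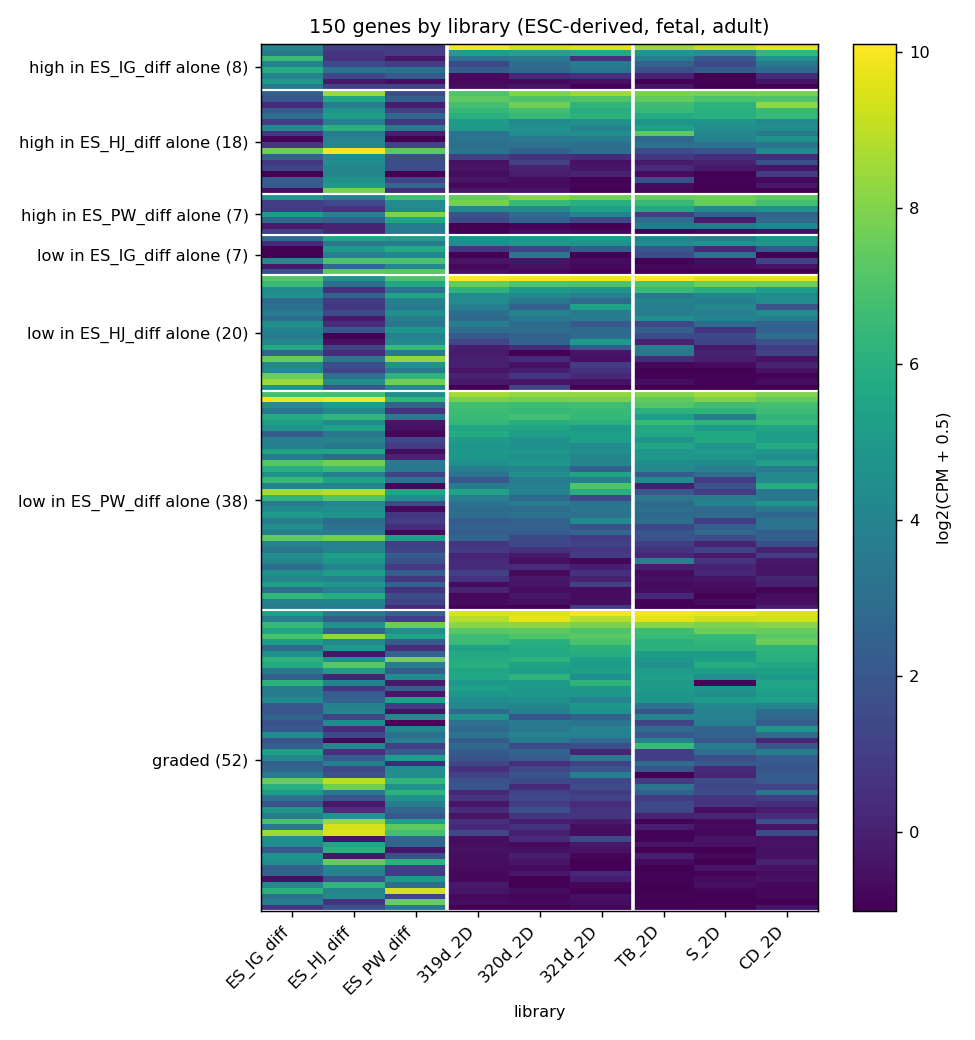
Each row is 1 of the 150 genes and each column 1 library, with colour for log2(CPM + 0.5); rows are grouped by the line that stood alone and ordered within a group by their median in primary lines. The 38 genes low in ES_PW_diff alone form the largest group with a line alone, and the ESC-derived columns differ because the genes were chosen for it.

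A few genes came close to an on or off state. At 3 counts or fewer in 1 ESC-derived line and 50 or more in both others, 6 genes were off in ES_PW_diff, 2 in ES_HJ_diff and 2 in ES_IG_diff. The reverse, 50 counts or more in 1 line and 3 or fewer in both others, held for 2 genes, both in ES_HJ_diff. Of the 10 genes that were off in 1 line, 5 had 50 counts or more in all other 8 cultures, primary ones included: 4 of these were off in ES_PW_diff and 1 in ES_HJ_diff.

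These 5 genes were singled out after their values were seen. ENSECAG00000024945 is described above. ENSECAG00000002607 was at 20 CPM in ES_IG_diff, 21.0 CPM in ES_HJ_diff and 0.0986 CPM in ES_PW_diff, with 6.61 to 10.4 CPM in the primary lines. ENSECAG00000018122 was at 13.0, 11.6 and 0.0493 CPM in the same order, with 3.41 to 6.75 CPM in the primary lines. Both were thus highest in the ESC-derived lines that held them and all but missing from ES_PW_diff.

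ENSECAG00000019245 differed in that all ESC-derived lines lay below the primary ones. It was at 4.11, 10.2 and 0.0493 CPM in ES_IG_diff, ES_HJ_diff and ES_PW_diff, and at 37.3 to 57.0 CPM in primary lines. Its log2 fold change was -3.50 ± 0.99 against adult and -3.42 ± 0.99 against fetal lines (SE, edgeR adjusted p = 0.0142 and 0.0158). Without ES_IG_diff the log2 fold changes were close to these, at -3.35 ± 1.24 and -3.26 ± 1.23, with a wider error, and neither call stood (SE, edgeR adjusted p = 0.0527 and 0.0575). Without ES_HJ_diff the log2 fold changes were -4.77 and -4.69, and without ES_PW_diff -2.90 and -2.81. The remaining gene, ENSECAG00000029472, had 0 counts in ES_HJ_diff, against 11.5 CPM in ES_IG_diff, 14.3 CPM in ES_PW_diff and 2.34 to 7.26 CPM in primary lines, and its counts are partly fractional.

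The spread of the same genes between primary lines is a measure that the rule did not use. Over fetal lines their median SD of log2(CPM + 0.5) was 0.39, beside 0.24 over the 8948 rows, and over adult lines it was 0.47, beside 0.25. An SD over 1 was found for 19 genes (12.7%) in fetal lines and 34 (22.7%) in adult lines, beside 2.21% and 3.1% of the rows. The SD between ESC-derived lines was above that between fetal lines for all 150 genes and above that between adult lines for 139. These counts follow from the choice of the genes: over the 8948 rows the ESC-derived SD was above the fetal one for 43.8% and above the adult one for 42.3%. The spread was below 0.5 in both fetal and adult lines for 63 genes, and over 1 in both for 11. All 6 primary values lay within 2-fold of each other, a range of 1 in log2(CPM + 0.5), for 55 genes (36.7%, beside 70.7% of rows).

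Low values hide spread, because 0.5 is added to each CPM. Restricting the view to genes with 10 CPM or more in at least 1 fetal line left 76 of the 150, with a median SD of 0.43 between fetal lines and 13 genes (17.1%) over 1. Among all 8770 rows at that level the median was 0.25 and 3.2% were over 1. In adult lines 75 genes were left, with a median SD of 0.51 and 19 genes (25.3%) over 1, beside 0.25 and 4.07% of 8755 rows. The genes left were thus more variable between primary lines than all rows passing the same minimum. That minimum in 1 line does not match the levels of the 2 sets. The 46 genes at 10 CPM or more in all 6 primary lines had smaller spreads. Their median SD was 0.29 in fetal and 0.32 in adult lines, with 0 and 2 genes over 1. The pseudocount moved these shares: with 2 in place of 0.5 and the list drawn anew, 4.67% of genes had an SD over 1 in fetal and 12.7% in adult lines, and with 0.1 the shares were 23.3% and 34.7%.

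When the rule that chose the 150 was applied to the adult lines, the list of 150 it gave had a median SD of 1.96 and a largest SD of 4.92, both above those of the ESC-derived list. The fetal list had a median of 1.43 and a largest value of 3.34. Only 76 of the present genes were eligible for the fetal list and 75 for the adult one. Of these, 8 (10.5%) were in the fetal and 12 (16%) in the adult list, each of which took 1.75% of its eligible rows; the shared genes are 5.33% and 8% of each list. Among the 19 genes with an SD over 1 in fetal lines, 321d_2D was highest for 12 and 319d_2D lowest for 11. Without 321d_2D the share of genes over 1 fell from 12.7% to 6.67%. Among the 34 in adult lines, CD_2D was high alone for 9, TB_2D for 7 and S_2D for 0, while S_2D was low alone for 6. Leaving out each adult line in turn gave shares of 16.7% to 20%.

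**Figure D3:**
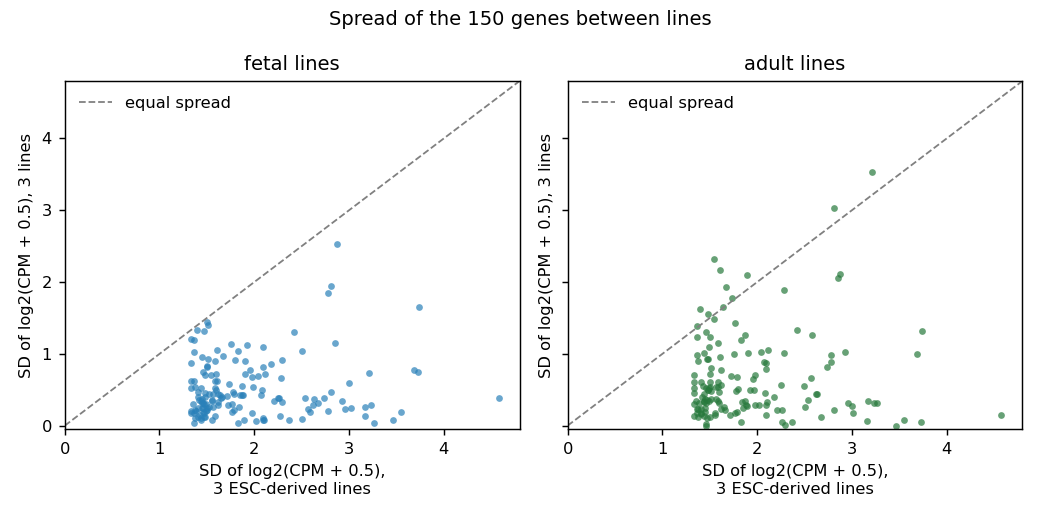
SD of log2(CPM + 0.5) over 3 fetal lines (left) and 3 adult lines (right) against the SD over the 3 ESC-derived lines, 1 point for each of the 150 genes, with a dashed line at equal spread. All points lie below the line for fetal lines and 139 of 150 for adult lines; no point lies left of 1.33 because the ESC-derived SD chose the genes.

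By their level in primary lines the genes formed 3 classes. A first class of 46 genes (30.7%, beside 71% of the 8948 rows) had 10 CPM or more in all 6 primary lines, with a median level of 60.4 CPM there. Of these, 11 kept 10 CPM in all ESC-derived lines, 16 in 2 and 19 in 1. ES_PW_diff was lowest for 28 of the 46 and below 1 CPM for 8, ES_HJ_diff was lowest for 14 and below 1 CPM for 3, and ES_IG_diff for 4 and 2. Of the 46, 34 were below 1 CPM in no ESC-derived line, 11 in 1 line and 1 in 2 lines. Those that fell below 1 CPM thus did so in different ESC-derived lines. In such bulk libraries, fewer cells that express a gene and less of its RNA in each cell cannot be told apart.

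A class of 28 genes (18.7%, beside 2.81% of rows) stayed below 1 CPM in all 6 primary lines. The median of their highest ESC-derived values was 28.8 CPM, and the largest was 657 CPM. They reached 10 CPM in 17 cases in 1 ESC-derived line, in 8 in 2 lines and in 3 in all 3 lines. ES_HJ_diff was highest for 14 of the 28 and the other lines for 7 each. The other 76 genes lay between these classes, with a median primary level of 4.02 CPM, and held all 19 genes with an SD over 1 in fetal lines and 32 of the 34 in adult lines. Both classes at the extremes were set by their primary values, which limits the spread they can show there.

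Each ESC-derived line was at a different distance from the primary level, taken as the median of the 6 primary libraries. In ES_IG_diff 63 of the 150 genes were over 4-fold above that level, 24 over 4-fold below and 27 within 2-fold. In ES_HJ_diff the counts were 53, 32 and 34, and in ES_PW_diff 49, 43 and 26. ES_PW_diff thus had the most genes below the primary level and ES_IG_diff the most above it. Among the 8948 rows 13.1% to 15.8% were over 4-fold above and 2.01% to 2.47% over 4-fold below in these lines, and 58.2% to 63.2% were within 2-fold. TMM scaling lowered the ESC-derived values as a whole and gave 57, 51 and 42 genes above and 28, 35 and 50 below in ES_IG_diff, ES_HJ_diff and ES_PW_diff, so the balance in ES_PW_diff turned with the scaling. Each primary library, set against the other 5, had 115 to 132 of the 150 genes within 2-fold. That is 76.7% to 88%, beside 92% to 98.5% of the 8948 rows. The genes were chosen for spread over the ESC-derived libraries, so larger distances in those libraries follow from the choice.

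**Figure D4:**
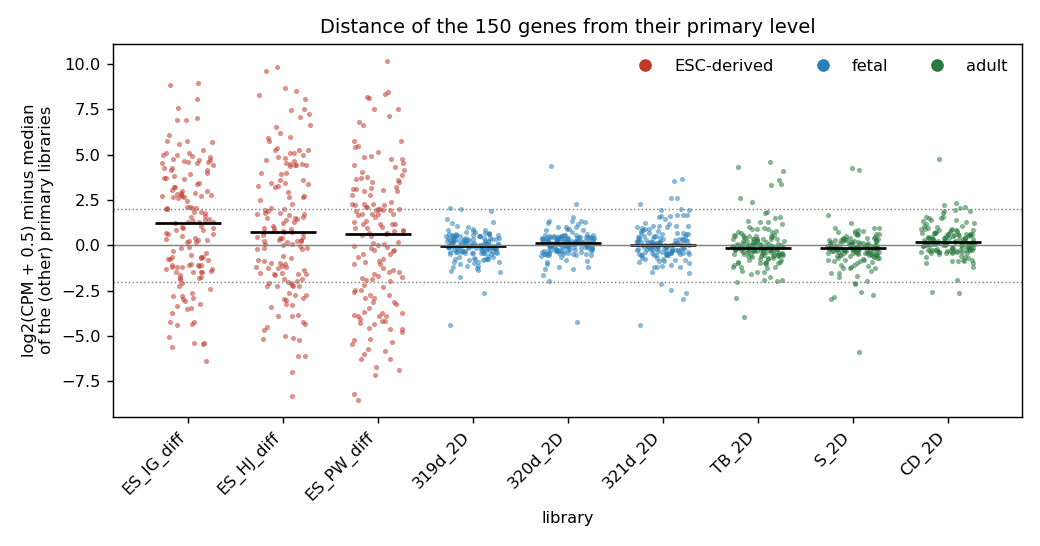
Difference in log2(CPM + 0.5) of the 150 genes, 1 point a gene, between each library and the median of the 6 primary libraries (for a primary library, of the other 5); black bars mark medians and dotted lines a 4-fold difference. The ESC-derived points reach far beyond the dotted lines on both sides, which follows from choosing the genes by their spread there. In each primary library 115 to 132 genes are within 2-fold.

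Where 1 ESC-derived line stood alone, the primary lines did not side with either part as a rule. For the 65 genes low in 1 line, the primary median was nearer to the lone line for 34 and nearer to the other lines for 31. For the 33 genes high in 1 line the numbers were 16 and 17. The other 2 lines lay, on average, within 2-fold of the primary median for 13 of the 65 and 6 of the 33, and the lone line did so for 11 and 8.

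The question of the study, how ESC-derived tenocytes differ from adult and fetal ones, was then asked of these genes in an edgeR fit over all genes and all 9 libraries. Of the 150, 145 passed the filter on low counts. The other 5 reached 10 CPM in 1 ESC-derived line at most and were at 0.427 CPM or less in primary lines. In ESC-derived against adult lines 52 of the 145 rose (35.9%, beside 28.3% of all 13462 genes tested) and 30 fell (20.7%, beside 30%). In ESC-derived against fetal lines 55 rose (37.9%, beside 27.9%) and 30 fell (20.7%, beside 29.9%). Both comparisons use the same 3 ESC-derived libraries. The number called, 82 and 85 of 145, was near the share of all genes, 58.3% and 57.8%. Nothing is read from it, because the spread that chose the genes also widens their error: the median SE of the log2 fold change was 0.95 for the 145 and 0.28 for all genes in both comparisons. With limma-voom 39 genes rose and 40 fell in the adult comparison (29.4% and 29.9% of all genes), and 38 rose and 36 fell in the fetal one (28.9% and 30.2%). DESeq2 gave 58 and 32 in the adult comparison (30.7% and 31.3% of all genes) and 60 and 31 in the fetal one (30.1% and 31.3%). The excess of higher over lower calls was thus found with edgeR and DESeq2 and not with limma-voom. This excess is not read as a trait of the 150 genes, because the rule asked for 10 CPM or more in an ESC-derived line. The 13462 genes tested had no such minimum. Of the 8948 rows, 13.1% to 15.8% were over 4-fold above the primary level in ESC-derived lines. Those over 4-fold below were 2.01% to 2.47%.

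The median absolute log2 fold change was 2.60 against adult and 2.54 against fetal lines, beside 0.91 and 0.89 for all genes tested. Genes chosen for a large spread over the ESC-derived libraries tend to have an ESC-derived mean far from any other level, so nothing is read from this contrast either. All ESC-derived libraries lay above all primary ones for 43 of the 145 (29.7%, beside 36.5%) and below them for 32 (22.1%, beside 23%), so that 70 genes overlapped in range.

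Among the genes called higher against both, ENSECAG00000001555 and ENSECAG00000009046 ranked first by the smaller of their 2 fold changes. ENSECAG00000001555 was at 66.9, 16.2 and 657 CPM in ES_IG_diff, ES_HJ_diff and ES_PW_diff. It was at 0.268, 0.149 and 0 CPM in fetal and at 0, 0.0447 and 0.0941 CPM in adult lines. Every ESC-derived culture was above every primary one, although the ESC-derived cultures differed 40.6-fold among themselves. By summed counts the ratio was 1628 to fetal (exact 95% counting interval 883 to 3669) and 5227 to adult lines (1800 to 25510). The edgeR adjusted p was 0.000706 and 0.000594, and with limma-voom it was 0.0466 and 0.0428. The counts of this gene are partly fractional. Without ES_PW_diff its edgeR log2 fold change against adult lines fell from 11.88 to 9.44, and against fetal lines from 10.38 to 7.94. Single primary libraries with few counts also moved it, to 12.70 against adult lines without CD_2D, and to 11.30 and 9.79 against fetal lines without 319d_2D and 321d_2D.

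ENSECAG00000009046 was low in ES_IG_diff, at 2.98 CPM, and at 162 and 148 CPM in ES_HJ_diff and ES_PW_diff. Fetal lines held 0.213, 0.0992 and 0 CPM, and adult lines 0, 0.0447 and 0 CPM, which is 1 count. The ratio by summed counts was 955 to fetal (exact 95% counting interval 463 to 2377) and 6991 to adult lines (1254 to 276165). The edgeR adjusted p was 0.000888 and 0.000686, but with limma-voom it was 0.119 and 0.0853. Without S_2D, which held the 1 adult count, the log2 fold change against adult lines moved from 12.03 to 13.99. Without ES_IG_diff it was 12.62 against adult and 10.17 against fetal lines, and without 319d_2D it was 10.68 against fetal lines, beside 9.57 with all libraries.

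At the other end, ENSECAG00000035279 and ENSECAG00000012627 ranked first among the genes that fell, by the same measure. ENSECAG00000035279 was at 16.2, 1.77 and 1.48 CPM in ES_IG_diff, ES_HJ_diff and ES_PW_diff, against 986, 669 and 781 CPM in fetal and 331, 538 and 860 CPM in adult lines. The groups were far from overlapping. Its log2 fold change was -7.25 ± 1.01 against fetal and -6.75 ± 0.99 against adult lines (SE, edgeR adjusted p = 0.000326 and 0.000431). Without ES_IG_diff, which held most of the ESC-derived counts, it was -9.20 and -8.71.

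ENSECAG00000012627 was at 13.7, 4.34 and 1.53 CPM in the ESC-derived lines in the same order. Fetal lines held 473, 812 and 460 CPM and adult lines 802, 589 and 625 CPM. The lowest primary line, 321d_2D, was thus far above the highest ESC-derived one, ES_IG_diff. Its log2 fold change was -6.73 ± 0.79 against fetal and -7.00 ± 0.80 against adult lines (SE, edgeR adjusted p = 0.000114 and 9.4e-05). Without ES_IG_diff it was -7.82 and -8.10. The residual level in ESC-derived lines, not the level in primary ones, made both genes part of the list.

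Fetal and adult lines were compared on the same genes. In the fit of all 9 libraries 0 of 145 were called by edgeR, as was 0% of the 13462 genes tested. An unadjusted p under 0.05 was found for 7 of the 145 (4.83%, beside 4.32%), and DESeq2 called 2 (1.38%, beside 0.402%). In that fit the ESC-derived spread enters the error of each gene. In a fit of the 6 primary libraries alone, which that spread does not touch, 115 of the 150 were tested and their median SE was 0.48. There 1 of 115 was called, beside 0.00799% of 12516 genes, and 15 (13%) had an unadjusted p under 0.05, beside 3.44%. Fetal and adult libraries did not overlap for 12 of the 115 (10.4%, beside 6.62%).

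The 2 genes behind these calls are named after their values were seen. ENSECAG00000018100 had 0, 1 and 0 counts in fetal lines and 10.6, 9.96 and 14.7 CPM in adult lines. Among ESC-derived lines it was at 11.0 CPM in ES_PW_diff, within the adult range, and at 0.361 and 0.532 CPM in ES_IG_diff and ES_HJ_diff. It was the 1 gene called in the fit of 6 libraries (edgeR adjusted p = 0.0113), and with all 9 its adjusted p was 0.552 (0.00575 without ES_PW_diff). ENSECAG00000015220 was at 41.9, 14.8 and 61.3 CPM in fetal and 3.58, 1.47 and 9.79 CPM in adult lines, which did not overlap. ES_IG_diff held 385 CPM, ES_HJ_diff 471 CPM and ES_PW_diff 47.1 CPM of it, so only ES_PW_diff lay within the fetal range. DESeq2 called it with an adjusted p of 0.0488, and edgeR did not (adjusted p = 0.945).

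In total the 150 genes held a small part of each library, similar between the groups on average. Their summed share was 0.668% ± 0.223 for the ESC-derived lines, 0.729% ± 0.00109 for the fetal lines and 0.698% ± 0.0494 for the adult lines (SD, n = 3). The ESC-derived libraries ranged from 0.474% in ES_PW_diff to 0.912% in ES_HJ_diff, on either side of all primary ones. Pairs of libraries were compared across the 150 genes by Pearson's r on the log2 scale, which reached 0.94 to 0.96 between fetal lines, 0.9 to 0.92 between adult lines and 0.86 to 0.95 between fetal and adult lines. Between ESC-derived lines it was 0.13 to 0.38, which the choice of genes lowers, and between ESC-derived and primary lines -0.07 to 0.22. Over the 8948 rows the same pairs gave 0.89 to 0.94 and 0.5 to 0.56, and pairs of primary lines 0.93 to 0.98. Genes are not independent replicates, so these values describe pairs of libraries.

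A fractional count in at least 1 library, which marks reads shared between similar transcripts, was found for 52 of the 150 genes (34.7%, beside 26.8% of rows). Their levels are less certain, since reads can be assigned to the wrong copy. Of the 145 genes tested, 94 had no fractional count. In a fit without such rows 51 of these were called against adult lines (54.3%, beside 57.6% of all genes in that fit). Of the 94, 29 were higher and 22 lower, beside 2873 and 2933 of all 10086 genes. Against fetal lines 53 were called (56.4%, beside 57.3%), 32 higher and 21 lower, beside 2866 and 2916 of 10086. The directions are not read as a trait of these genes, since the rule asked for 10 CPM in an ESC-derived line.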

How the data were processed

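Polyadenylated RNA of 9 cultures was sequenced from a stranded mRNA kit as pairs of 100 bases, per the labels' protocols. The deposited table holds estimated counts per Ensembl gene identifier. FastQC, Salmon and R 3.5.2 were used, per the submitters' processing notes; for the Salmon version, build and annotation the sources used here give nothing. Library totals were 20166692 to 23767643 counts.

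The members, lists and tests were chosen with earlier results of these data known. The exclusions of the rule were applied before the 150 were taken. CPM used column totals. Counts were rounded and tested with edgeR 4.0.16 in R 4.3.3 (TMM, filterByExpr, glmQLFit, glmQLFTest; 1 mean per group over 9 libraries), with Benjamini-Hochberg adjustment over all genes and calls at an adjusted p under 0.05. SEs came from the F statistic. Counting intervals are exact at 95%. The series text calls the lines independent; p-values measure the spread between these samples.

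The procedure was tested on simulated data. Of 4-fold changes, 79.1% were recovered for ESC-derived against adult (13257 genes), 67.2% against fetal (13285 genes) and 62.7% for fetal against adult (13283 genes). Of 2-fold changes, 10.45%, 16.42% and 20.9% were recovered in the same order, and false calls numbered 7, 4 and 6. Recovery was not measured separately for the genes described here. Their median SE was 0.95 against adult and against fetal lines, beside 0.28 for all genes tested, so these shares cannot be taken as theirs.

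Alternatives were other pseudocounts, CPM minimums, list lengths, orders of exclusion and scalings for the choice of genes. For calls they were RLE scaling, total counts, limma-voom (limma 3.58.1), DESeq2 1.42.0, no low-count filter, 6-library fits and leaving out each library. Rows with fractional counts, and spreads without each primary library, were left out as alternatives added after seeing the data.

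No RefSeq gene entry used here carries an Ensembl identifier, so 0 of 21689 identifiers were named and 0 of 25 gene lists were run. Without names, the rule showed the 2 genes with the largest SD among those high in 1 line, the 2 among those low in 1 line, and the 2 highest and 2 lowest called in both ESC-derived comparisons by the smaller fold change. No sequence or coordinate is given.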

Additional observations from a re-analysis of the deposited data

How the results depend on the processing

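The choice of 150 genes kept 125 of them when the exclusions were applied after the ranking, all 125 that this order left. It kept 134 with a pseudocount of 2, 144 with 0.1, 134 with TMM library sizes, 100 with a minimum of 1 CPM, 43 with 50 CPM and 98 without fractional rows. Lists of 75 and 300 genes are nested with it. The share lowest in ES_PW_diff rose from 52.7% to 62% at 50 CPM and 62.7% with TMM sizes; the share highest in ES_HJ_diff rose from 44% to 58% and 52.7%; the share high in 1 line fell from 22% to 11.3% at 50 CPM. These lists were drawn anew. The share with an SD over 1 was 4.67% (fetal) and 12.7% (adult) with a pseudocount of 2, 23.3% and 34.7% with 0.1, and 6.67% in fetal lines without fractional rows. With 1 line left out it was 6.67% to 18% in fetal and 16.7% to 20% in adult lines. Members called numbered 71 to 89 against adult and 65 to 91 against fetal lines with 1 library left out, and 51 and 53 without fractional rows, where 94 were tested. Between fetal and adult lines 0 to 1 were called with 1 library left out, 2 by DESeq2 and 1 in the 6-library fit; edgeR under RLE scaling, total counts and no filter, and limma-voom, called 0. The cause was not tested. Of the genes named for calls, ENSECAG00000009046 lost both with limma-voom and no direction changed. Total counts shifted the median log2 fold change of all genes to 0.31 against adult and 0.24 against fetal lines. No paired analysis was run, because the labels name no pairs and the series text calls the lines independent. The labels give no replicate numbers, and those used follow the order of deposition. Depth limits genes near 0 counts.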
